A study of Mus musculus with 23 samples.

Results

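Cancer-associated fibroblasts (CAFs) of EO771 tumors were compared with CAFs of LL2, MC38 and Pan02 tumors by RNA-seq. The comparison takes the 2 libraries labelled as CAFs of the EO771.LMB line, out of 23 libraries in the series, against the 6 CAF libraries of the other 3 models, 2 from each. EO771.LMB is a breast carcinoma line, LL2 (LL/2 in the labels) a lung carcinoma line, MC38 a colon carcinoma line and Pan02 a pancreatic ductal carcinoma line, and all 4 come from C57BL/6 mice. Cells of each line were injected under the skin of the flank of adult female mice and grew untreated until the endpoint, so all groups share the site, and the breast, lung, colon and pancreas lines did not grow in their organ of origin. Tumors were digested, leukocytes were depleted by CD45, cells positive for the protease FAP were sorted, and each model gave RNA from 2 separate rounds of sorting. The sort used no other lineage marker, so a FAP+ cell of another type would have been kept. How many mice went into a round is not given in the sources used here. Whole-tumor libraries of the same 4 models, 3 of EO771 and 9 of the others, gave a separate measurement. B16 tumors were not used here, and CT26 samples were not analysed here.

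Fibroblasts build the collagen-rich matrix of connective tissue, and in tumors they are recruited and activated into CAFs, which deposit and crosslink collagens, secrete proteases that remodel it, and release growth factors, cytokines and chemokines. FAP is a serine protease of the cell surface found on most activated fibroblasts. Activated CAFs differ in character, from contractile, matrix-producing cells driven by TGF-β to cells that secrete inflammatory mediators. The question here is which genes set the sorted EO771 cells apart from those of the other models.

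Levels are RPKM, reads scaled to transcript length and to the depth of the library. Differences are on the log2(RPKM + 1) scale, as EO771 minus the mean of the 3 other model means. A difference of 1 is about a doubling for well expressed genes and more than a doubling of RPKM for low ones. A call needed an adjusted p below 0.05 (limma, Benjamini-Hochberg over all tested genes) and a log2 difference of 1 or more in size. The RPKM steps of low genes gave 18.1 and 17.7 M recovered counts (M, 10 to the power of 6) in the EO771 libraries and 6.22 to 19.5 M in the other 6. The shallowest was MC38 replicate 2, which also stood apart from its partner, with 827 tested genes at least 2-fold apart between the MC38 libraries. The same number was 308 for Pan02, 76 for LL2 and 59 for EO771, so the EO771 pair agreed most closely of the 4 pairs. Where several genes are given together, a slash separates replicates 1 and 2 of a model.

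Most defining genes of fibroblasts were at high levels in the sorted EO771 cells. *Col1a1*, which encodes the main chain of type I collagen, was measured at 3773 and 3362 RPKM in the EO771 libraries, *Col1a2* at 2474 and 2229.9, *Vim* at 1698 and 1848, the decorin gene *Dcn* at 275 and 307 and the growth factor receptor gene *Pdgfra* at 31.4 and 29.6. The transcript of the sorting marker, *Fap*, was low in all 8 libraries, at 6.46 and 7.16 RPKM in EO771 and 1.89 to 11.4 RPKM elsewhere, with a log2 difference of 0.22 ± 0.30 (SE, adjusted p = 0.57). Of 15 identity genes tested, 6 were called higher in EO771 (*Lrrc15*, *Thy1*, *Postn*, *Pdpn*, *Col1a2* and *Prrx1*), 1 lower (*S100a4*) and 8 neither, with a median log2 difference of 0.46 against -0.02 over all 13598 tested genes. Summed RPKM of the 15 genes was 9063 to 9683 in EO771 and 2619 to 7401 in the others. Against LL2 alone 0 identity genes were called higher and 2 lower, whereas 5 were higher against MC38 and 8 against Pan02. Without EO771 replicate 1 or 2 the 6 calls became 1 or 2, and without either LL2 library or Pan02 replicate 2 they became 3. *S100a4*, a calcium-binding protein gene long used as a fibroblast marker, stood at 57.0 and 65.7 RPKM in EO771 and 318 to 761 RPKM in the others (log2 difference -2.88 ± 0.19, adjusted p = 4.5e-05), although 51.7% of its exon bases overlap another annotated gene. Markers of other cells were present too. Of 22 leukocyte markers 13 passed the filter on low values, and their summed RPKM over all 22 was 123 to 149 in EO771 and 11.3 to 52.5 in the others. The 13 endothelial markers summed to 105 to 108 RPKM in EO771 and 14.6 to 95.2 in the others. The 20 epithelial markers summed to 505 to 514 RPKM in EO771 and 33.7 to 1214 in the others. Most of the EO771 sum was *Krt8*, at 492 and 495 RPKM. The epithelial adhesion genes *Epcam* and *Cdh1* were near 0 in EO771, at 0.188/0.438 and 0.126/0.351 RPKM. Genes that respond to tissue dissociation summed to 5288 to 5331 RPKM in EO771 and 2620 to 9504 in the others.

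Of the 13598 tested genes, 1094 were called higher in EO771 CAFs (8.05%) and 960 lower (7.06%). Both EO771 libraries lay above all 6 others for 2356 genes (17.3%) and below all 6 for 2364 (17.4%), which includes 926 of the genes called higher and 706 of those called lower. Against single models, LL2 was nearest: 1011 genes were called higher than in LL2 (7.43%) and 795 lower (5.85%), against 1762 (13%) and 1876 (13.8%) for MC38 and 1715 (12.6%) and 1649 (12.1%) for Pan02. The mean Euclidean distance over tested genes to the EO771 libraries was 94.0 log2 units for LL2, 126 for MC38 and 128 for Pan02, and the 2 EO771 libraries were 23.8 apart. In all, 381 genes were called higher against each of the 3 models and 197 lower. With MC38 replicate 2 left out, 1032 genes were called higher and 926 lower. With 1 EO771 library left out, the genes called higher fell to 735 or 802, in part because 155 of the 1094 then no longer reached 1 RPKM in 2 libraries and were not tested. Those 155 passed the filter only through the EO771 libraries, and 290 of the 960 lower genes only through the others, so that their direction was fixed by it. In the lists these are 6 of the 8 lower Hox genes, 7 of the 11 lower developmental factors, 4 of the 6 lower epithelial markers and 3 of the 12 higher chemokines, among others. *Aqp3*, *Krt17*, *Il23a*, *Lypd3*, *Gm364*, *Col2a1*, *Il24*, *C5ar1* and *Ckm* also passed only through EO771. *P3h2*, *Bmp4*, *Itgb8*, *Notum*, *Bdnf*, *Igf2*, *Scx*, *Gsta4*, *Ido2* and *Cited1* passed only through the others. For all these genes the adjusted p adds no support for the direction.

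The 4 genes given as markers of these cells, *Esx1*, *Nppb*, *Aqp3* and *Mmp10*, encode a homeobox factor of the placenta, the natriuretic peptide BNP, a water and glycerol channel and the matrix metalloproteinase stromelysin-2. The 150 bases before the start of each gene (RefSeq, GRCm38.p6, the mm10 build, strand of the gene, 5′ to 3′) are shown to place the promoters of these marker genes beside their levels, together with that of *Mmp13*, another metalloproteinase gene of the chromosome 9 cluster that was high in EO771. Capitals mark TGANTCA, a loosened form of the AP-1 site (usually C or G at N), and TATAAA, both searched on both strands and here not overlapping. The *Esx1* match, TGATTCA, has T in that place. The RefSeq start of *Nppb* lies inside the transcript as the files place it.
Esx1, chrX:137120327-137120476, minus strand: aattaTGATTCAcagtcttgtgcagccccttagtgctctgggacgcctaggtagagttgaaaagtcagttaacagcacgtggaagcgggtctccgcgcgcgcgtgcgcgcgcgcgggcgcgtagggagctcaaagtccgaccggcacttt
Nppb, chr4:147985750-147985899, plus strand: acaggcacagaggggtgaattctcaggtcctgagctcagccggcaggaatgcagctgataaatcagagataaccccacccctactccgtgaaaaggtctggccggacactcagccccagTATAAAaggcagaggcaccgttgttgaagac
Aqp3, chr4:41098184-41098333, minus strand: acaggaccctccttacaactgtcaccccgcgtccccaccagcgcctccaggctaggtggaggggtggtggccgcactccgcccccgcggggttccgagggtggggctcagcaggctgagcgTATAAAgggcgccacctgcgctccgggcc
Mmp10, chr9:7502192-7502341, plus strand: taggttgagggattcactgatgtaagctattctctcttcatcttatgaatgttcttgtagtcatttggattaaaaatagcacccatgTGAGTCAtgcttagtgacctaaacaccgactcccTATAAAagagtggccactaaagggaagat
Mmp13, chr9:7272364-7272513, plus strand: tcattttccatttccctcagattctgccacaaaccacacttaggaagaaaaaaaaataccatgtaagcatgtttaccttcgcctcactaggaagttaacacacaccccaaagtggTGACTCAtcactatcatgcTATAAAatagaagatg

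TGANTCA was found before *Esx1*, *Mmp10* and *Mmp13*, at 145, 63 and 35 bases upstream of the start, and in 4.24% of 32851 annotated windows of the same length. TATAAA was found before *Nppb*, *Aqp3*, *Mmp10* and *Mmp13*, at 31, 29, 29 and 16 bases, and in 7.57% of windows. These are matches of letters only.

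*Esx1* (chromosome X, 137115397 to 137120326 in mm10) was measured at 734 and 743 RPKM in the 2 EO771 libraries. LL2 libraries had 3.33 and 3.77 RPKM, MC38 libraries 0.903 and 1.59 and Pan02 libraries 0.233 and 0.123. Its log2 difference was 8.34 ± 0.14 (adjusted p = 3.9e-07), which put it first of all tested genes. *Nppb* (chromosome 4, 147985788 to 147987205) had 88.6 and 90.4 RPKM in EO771 and 0 to 1.26 RPKM in the other libraries, with a log2 difference of 5.96 ± 0.15 (adjusted p = 1.2e-06). *Aqp3* (chromosome 4, 41092724 to 41098183) had 65.9 and 55.3 RPKM against 0 to 0.365 RPKM, a log2 difference of 5.77 ± 0.15 (adjusted p = 1.3e-06). *Aqp3* passed the filter on low values only through the EO771 libraries, which fixed its direction. *Mmp10* (chromosome 9, 7502342 to 7510242) was less even, with 40.4 and 27.9 RPKM in EO771, 2.85 and 3.69 in LL2 and 0.0320 to 1.05 in MC38 and Pan02 (log2 difference 4.06 ± 0.29, adjusted p = 7.0e-05). The EO771 libraries were above all 6 others for each of the 4, and each was also called higher against every single model, *Mmp10* by 3.03 against LL2, its nearest. In whole EO771 tumors the 4 genes were higher as well, by 7.68, 4.66, 6.28 and 3.19 on the log2 scale of counts (edgeR, adjusted p = 1.8e-06, 2.1e-05, 9.9e-06 and 1.7e-04). *Mmp10* overlapped there with Pan02, since EO771 tumors had 16.1 to 34.7 CPM (counts scaled to library size) and the other tumors 0.343 to 26.8.

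**Figure D1:**
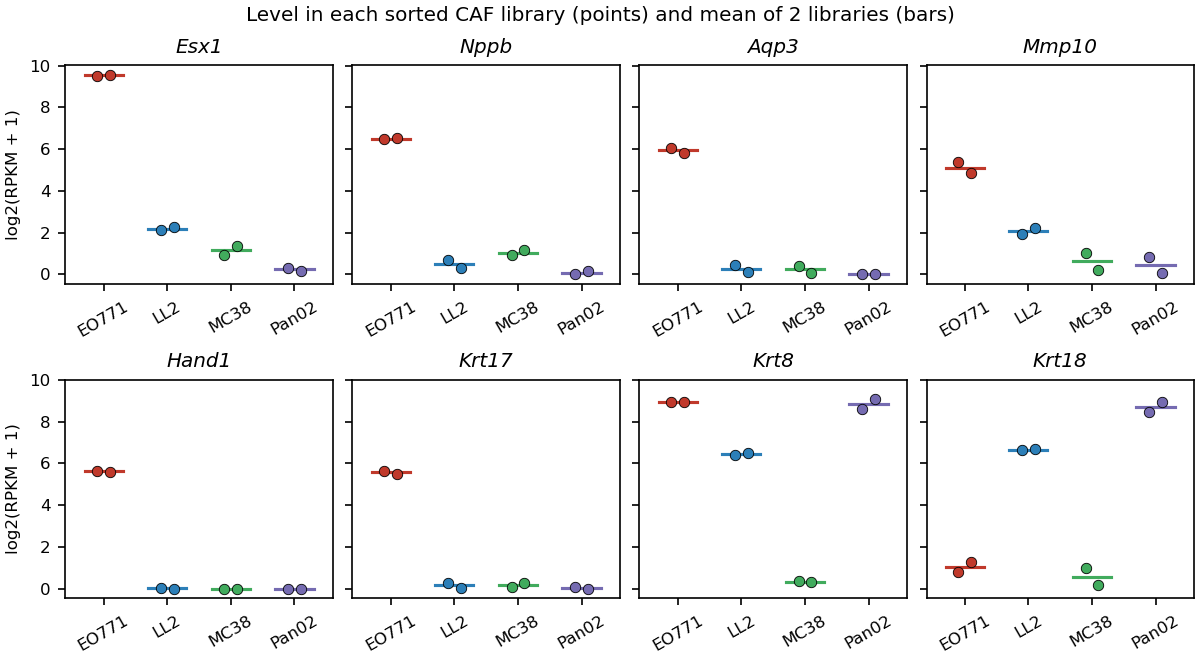
Level of 8 genes as log2(RPKM + 1) in each sorted CAF library, 2 points per model, with a bar at their mean. Esx1, Nppb, Aqp3, Mmp10, Hand1 and Krt17 were above all other libraries in EO771. Krt8 overlapped between EO771 (492 and 495 RPKM) and Pan02 (385 and 545), and Krt18 stayed at 0.729 and 1.40 RPKM in EO771.

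*Hand1*, a transcription factor of heart and trophoblast giant cells, had 49.3 and 46.5 RPKM in EO771 and at most 0.0230 RPKM in any other library (log2 difference 5.61 ± 0.10, adjusted p = 4.1e-07). *Plet1*, a surface protein of placenta and epithelial progenitors, had 47.8 and 49.2 RPKM against 0.269 to 1.85 (log2 difference 4.68, adjusted p = 4.1e-06). *Phlda2*, an imprinted gene that restrains placental growth, had 39.4 and 44.0 RPKM against 0.388 to 6.41 (log2 difference 4.12, adjusted p = 1.0e-05). *Sohlh2*, a germ cell transcription factor, had 9.22 and 9.62 RPKM against 0 to 0.0920. Of 27 placental and trophoblast genes 14 were tested: 6 were called higher (*Esx1*, *Hand1*, *Plet1*, *Phlda2*, *Sohlh2* and *Rhox5*), 4 lower (*Peg10*, *Prl2c2*, *Cdx2* and *Prl2c3*) and 4 neither. Of these calls, *Hand1* and *Sohlh2* passed the filter only through the EO771 libraries and the 4 lower genes only through the others, so that their direction was fixed by it. Without Pan02 replicate 2 the lower calls were 2. The trophoblast regulators *Eomes*, *Elf5*, *Gcm1*, *Ascl2* and *Tfap2c* stayed at or under 0.141 RPKM in both EO771 libraries and were not tested. *Rhox5*, a homeobox gene of the X chromosome, was at 314 and 373 RPKM in EO771 but at 235 and 290.3 in LL2 and 267 and 266 in MC38, and only Pan02 was low, at 12.3 and 8.39. *Prl2c2* and *Prl2c3* belong to a family of near-identical copies, so their reads may be shared.

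*Vgf*, a neuropeptide precursor, had 59.8 and 59.6 RPKM in EO771 and 0.154 to 3.62 elsewhere (log2 difference 4.77, adjusted p = 1.3e-06), and *Il23a*, the specific subunit of interleukin 23, had 32.1 and 31.8 against 0 to 0.811 (4.53, adjusted p = 5.0e-06). *Lypd3*, a surface protein related to the urokinase receptor, had 29.1 and 27.6 RPKM against 0.0760 to 0.931 (4.48, adjusted p = 1.3e-06). *Tex19.1*, a germ cell and placenta gene, had 23.5 and 27.0 against 0 to 1.09. The little known genes *4930550L24Rik* and *Gm364* had 56.5/62.0 and 29.2/31.1 RPKM in EO771, with log2 differences of 5.03 and 4.90. Of these genes, *Il23a*, *Lypd3* and *Gm364* passed the filter only through the EO771 libraries, which fixed their direction. Among the 15 largest rises, *Crabp1* and *Crmp1* were also raised in LL2 beside MC38 and Pan02. *Crabp1*, which binds retinoic acid in the cytoplasm, was at 435 and 347 RPKM in EO771 and 230.1 and 236 in LL2, but 1.36 to 6.61 in MC38 and Pan02, so that its difference was 0.74 from LL2 (adjusted p = 0.30) and 6.52 from MC38. *Crmp1*, which acts in axon guidance, was at 50.0 and 52.7 RPKM in EO771, 12.4 and 12.7 in LL2 and 0 to 0.167 in the other models, and its difference from LL2 was 1.95 (adjusted p = 9.6e-05). The other large rises were *Krt17* and *C1qa*, a keratin and a complement gene.

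Keratins pair up as filaments of one acidic and one basic chain, and keratin 8 is the usual partner of keratin 18 in simple epithelium. In the EO771 CAF libraries *Krt8* had 492 and 495 RPKM and *Krt18* only 0.729 and 1.40. Both were high in Pan02, at 385/545 and 349/483 RPKM, both intermediate in LL2, at 84.2/90.5 and 97.2/101, and both low in MC38, at 0.274/0.241 and 0.979/0.116. EO771 was the only one of the 4 models in which these levels parted. Against the mean of the other models *Krt8* was called higher (log2 difference 3.74 ± 0.14, adjusted p = 5.6e-06) and *Krt18* lower (-4.27 ± 0.24, adjusted p = 2.6e-05). The whole tumors had the same pattern, with *Krt8* at 1197 to 1261 CPM and *Krt18* at 2.18 to 3.55 CPM in the 3 EO771 tumors. Among acidic keratins, *Krt17*, which is induced in stressed and basal epithelium, had 48.2 and 44.5 RPKM in EO771 and at most 0.210 elsewhere (log2 difference 5.45 ± 0.12, adjusted p = 9.4e-07), and *Krt16*, chosen after its values were seen, had 21.6 and 16.8 against at most 1.07. The filter fixed the direction of *Krt17*, which passed only through the EO771 libraries. Of 20 epithelial markers 15 were tested, and 2 were called higher (*Krt8* and *Krt14*), 6 lower (*Krt18*, *Krt19*, *Krt7*, *Ovol2*, *Ehf* and *Cdh1*) and 7 neither. The 20 genes summed to 505 to 514 RPKM in EO771 and 33.7 to 1214 in the others. Each of the 6 lower genes was far higher in Pan02 or in MC38, as with *Krt7* at 49.5 and 49.5 RPKM in Pan02 and 0.689 and 0.523 in EO771.

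Genes that mark EO771 tumors were looked up in the CAF libraries. In the whole tumors, 115 genes had a log2 fold change of at least 3 over the other 3 models at an adjusted p under 0.05 and a mean of at least 10 CPM. Of these, 112 were tested in CAFs, and 104 were called higher there, 0 lower and 8 neither. Both EO771 CAF libraries were above all 6 others for 91 of them, and their median log2 difference was 2.28, against -0.02 for all tested genes. Their summed RPKM was 3649 to 3800 in EO771 CAFs and 285 to 540 in the others. The list was drawn from tumors that also hold cancer cells. FAP+ cells of the EO771 line itself and fibroblasts that carry the same transcripts cannot be told apart in these bulk libraries, and neither can fewer cells of a type and less RNA per cell. Each call is for a sorted library as a whole.

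Of the 15 largest falls, *Igf2*, *Enpp2* and *Cp* were farthest from Pan02. *Igf2*, an imprinted growth factor of fetal tissue, had 0.189 and 0.146 RPKM in EO771, 356 and 415 in Pan02 and 0.985 to 5.51 in MC38 and LL2 (log2 difference -4.07 ± 0.34, adjusted p = 1.2e-04), with 64.5% of its exon bases shared with overlapping genes. *Enpp2*, which encodes autotaxin, the enzyme that makes lysophosphatidic acid, was at 2.89 and 2.61 RPKM against 611 and 514 in Pan02, 44.4 and 46.6 in LL2 and 5.99 and 4.47 in MC38 (log2 difference -3.86, adjusted p = 3.8e-06). *Cp*, the ferroxidase ceruloplasmin, was at 2.69 and 2.73 RPKM in EO771 and 360.2 and 365 in Pan02, and within 4.0 to 10.4 in the others. *Enpp2* and *Cp* were not called against MC38 (log2 differences -0.72 and -0.66). *Ptn*, the heparin-binding growth factor pleiotrophin, had 4.84 and 4.13 RPKM in EO771 and 28.3 to 189 elsewhere, with log2 differences of -3.87, -2.48 and -4.91 from LL2, MC38 and Pan02 (adjusted p = 1.5e-05, 4.6e-05 and 2.1e-06). *Ifitm1*, an interferon-induced membrane protein, had 7.88 and 9.50 RPKM against 55.9 to 111 (log2 difference -2.98, adjusted p = 2.4e-05). *3110039M20Rik*, a little known gene, was listed at 0 in both EO771 libraries and at 0.489 to 48.1 RPKM in the others, and it was not called against LL2 (-0.76). *Fendrr*, a noncoding RNA beside *Foxf1*, had 0.0980 and 0.0920 RPKM in EO771 against 0.971 to 37.5, *Foxf1* itself, a factor of gut and lung mesenchyme, had 1.3 and 0.897 against 3.27 to 38.7, and the corepressor gene *Tle2* had 5.13 and 4.41 against 12.5 to 98.8. *Hap1* and *Syt13*, both of vesicle traffic, had 0.163/0.193 and 0.954/1.01 RPKM in EO771. The remaining large falls were *3110039I08Rik*, *S100a4* and the hairpin loci *Mir5136* and *Mir6935*, the latter lying wholly within *Actg1*, so that its reads cannot be told from that gene's. Among these falls, *Igf2*, *3110039M20Rik*, *Fendrr*, *Hap1* and *3110039I08Rik* were under 1 RPKM in both EO771 libraries. They passed the filter only through the other models, which fixed their direction.

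Against the mean of the 3 models, calls among matrix genes were nearly all upward. Of 11 fibrillar collagen genes 4 were called higher and 0 lower, with a median log2 difference of 1.08. Of 44 matrix glycoproteins 11 were called higher and 1 lower, with a median of 0.72. Against LL2 alone 1 fibrillar collagen was called higher and 0 lower, against 4 and 0 for MC38 and 7 and 0 for Pan02. For glycoproteins the counts were 4 and 2 for LL2, 17 and 3 for MC38 and 18 and 3 for Pan02. The collagen gene *Col1a2* had 2474 and 2229.9 RPKM in EO771, 1161 and 872 in LL2, 1308 and 249 in MC38 and 834 and 386 in Pan02 (log2 difference 1.77 ± 0.59, adjusted p = 0.038). The 2 EO771 libraries were the highest of the 8, yet the other pairs were wide. *Col1a1* was likewise highest in EO771 but not called (1.41 ± 0.62, adjusted p = 0.091), with 2771 and 467 RPKM in MC38. *Col5a1* and *Col5a3*, the chains of a collagen that starts fibril assembly, were called higher by 1.22 and 1.08, as was *Col2a1*, the cartilage collagen, from 0.0110 to 0.852 to 4.19 and 3.47 RPKM. Of 21 other collagens 4 were higher (*Col12a1*, *Col7a1*, *Col23a1* and *Col6a3*) and 1 lower (*Col28a1*, at 79.0 and 80.0 RPKM in Pan02 and 2.38 and 2.70 in EO771). Among the 21, 1 was higher and 0 lower than in LL2, with 5 and 5 for MC38 and 8 and 2 for Pan02.

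Among glycoproteins, *Tnn*, tenascin-W of bone and tumor stroma, had 47.6 and 29.2 RPKM in EO771 and 0.373 to 6.68 elsewhere (log2 difference 3.81 ± 0.53, adjusted p = 0.0011). *Tgfbi*, a TGF-β-induced adhesion protein, had 207 and 209.8 RPKM in EO771, 105 and 106 in LL2 and 4.04 to 16.6 in MC38 and Pan02 (log2 difference 3.26, adjusted p = 0.0011). *Fbln2* had 616 and 544 RPKM against 40.9 to 209.8 and *Tnc* 355 and 272 against 11.3 to 135. These genes were above every other library in EO771, and *Tgfbi* came closest in LL2. *Aebp1*, *Emilin2*, *Spon1*, *Postn*, *Mfap2* and *Nid1* were among the other calls. Fibronectin, *Fn1*, went the other way, with 438 and 339 RPKM in EO771, 1991 and 1321 in Pan02, 1031 and 1005 in LL2 and 514 and 259 in MC38 (log2 difference -1.13 ± 0.29, adjusted p = 0.015), a call that was lost without either EO771 library or MC38 replicate 1. Of 20 collagen-processing enzymes 5 were higher, among them the crosslinking oxidases *Lox* (1.47, adjusted p = 0.014) and *Loxl2* (2.00, adjusted p = 0.0093), and 1 lower, the prolyl hydroxylase *P3h2* (-2.15, adjusted p = 3.1e-05). *P3h2* passed the filter only through the other models, so it could only come out lower. Against single models, 1 of the 20 enzymes was higher and 4 lower for LL2, 5 and 1 for MC38 and 10 and 1 for Pan02.

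The matrix calls moved with single libraries. Leaving out EO771 replicate 1 or 2 gave 0 or 1 higher fibrillar collagens in place of 4, and 5 higher glycoproteins in place of 11. Leaving out Pan02 replicate 2 or LL2 replicate 2 gave 2 and 7, and LL2 replicate 1 gave 7 glycoproteins. Leaving out MC38 replicate 1, which kept its shallow partner, gave 7 and 22, and leaving out MC38 replicate 2 gave 4 and 10. The 4 other collagens became 1 or 2 without EO771 replicate 1 or 2, and the 5 processing enzymes became 1 without either EO771 library and 3 without LL2 replicate 2.

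**Figure D2:**
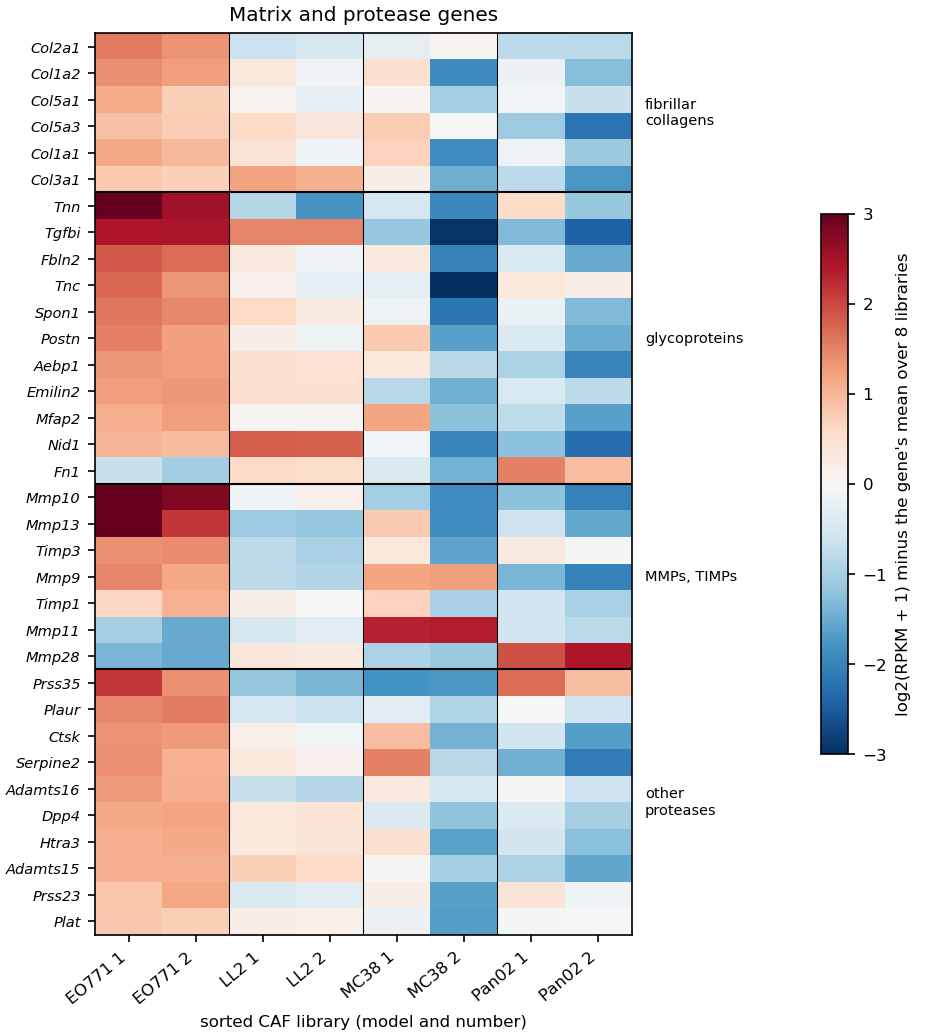
Most of the matrix and protease genes called in EO771 CAFs, with Col1a1 and Col3a1 added, as log2(RPKM + 1) minus the gene's mean over the 8 CAF libraries (color), for each library (columns). The 2 EO771 columns are high for most rows and alike, MC38 2 and Pan02 2 are low for most collagens and glycoproteins, and Fn1, Mmp11 and Mmp28 are low in EO771.

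Proteases and their inhibitors were called in both directions. Of 17 metalloproteinase (MMP) and TIMP genes tested, 5 were higher and 2 lower, with a median of 0.94. Besides *Mmp10*, the collagenase gene *Mmp13* had 54.1 and 23.8 RPKM in EO771 and 0.527 to 8.65 elsewhere (log2 difference 3.64 ± 0.65, adjusted p = 0.0032). The gelatinase *Mmp9* had 23.4 and 18.9 RPKM in EO771 but 19.3 and 20.1 in MC38, and it was far from LL2 (4.17 and 3.85) and Pan02 (2.42 and 1.18). The inhibitors *Timp3* and *Timp1* were higher by 1.86 and 1.10. *Mmp11*, stromelysin-3, had 15.6 and 10.8 RPKM in EO771 and 163 and 171 in MC38 (log2 difference -1.67, adjusted p = 1.7e-04), and *Mmp28* had 1.15 and 0.963 RPKM and 20.0 and 29.1 in Pan02 (-1.92, adjusted p = 1.1e-04). The most abundant members, *Mmp2*, *Mmp14* and *Mmp3*, were not called, with 256/245, 339.7/313 and 111/134 RPKM in EO771 and log2 differences of 0.94, 0.16 and 1.11.

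The other protease calls included genes of the plasminogen system. The urokinase receptor *Plaur* had 167 and 179 RPKM against 32.0 to 61.4 (log2 difference 1.98 ± 0.20, adjusted p = 3.0e-04), and tissue plasminogen activator, *Plat*, was higher by 1.01 ± 0.33 (adjusted p = 0.035). In all, 11 of 23 ADAMTS and other protease genes tested were higher and 0 lower, with a median of 1.05, among them *Prss35*, *Serpine2*, *Ctsk*, *Dpp4*, *Htra3*, *Adamts15* and *Adamts16*. Without EO771 replicate 1 the 11 became 7, without EO771 replicate 2, either LL2 library or Pan02 replicate 2 they became 6, and the MMP and TIMP calls went from 5 to 3 without either EO771 library and to 9 without MC38 replicate 1.

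Signals known to act on fibroblasts were split. TGF-β activates CAFs and induces matrix genes: of its ligands, receptors and latency proteins 14 were tested, with *Tgfb2* (7.86 and 7.14 RPKM, log2 difference 1.84, adjusted p = 3.1e-04) and *Tgfb1* (101 and 111 RPKM, 1.21, adjusted p = 4.0e-04) higher. The latency proteins *Ltbp1* and *Ltbp3*, which hold TGF-β in the matrix, and the integrin *Itgb8*, which frees it, were lower, with log2 differences of -1.3, -1.12 and -1.01. Without MC38 replicate 1 there were 4 higher calls in place of 2. Of 12 TGF-β target genes 6 were higher and 0 lower, with a median of 1.33, among them *Tgfbi*, *Tagln*, *Bhlhe40*, *Ctgf* and *Smad7*. Without EO771 replicate 1 or 2 these 6 became 2 or 3. For 3 of the 12 targets both EO771 libraries were above all 6 others. *Bhlhe40* and *Ctgf* overlapped with Pan02, with log2 differences from it of 0.27 and 0.38. Contractile genes, another mark of TGF-β activated fibroblasts, were higher for 4 of 15. The smooth muscle actin genes differed: *Actg2* had 45.6 and 41.9 RPKM against 1.69 to 23.1 (log2 difference 3.01 ± 0.53, adjusted p = 0.0030), and *Acta2* had 157 and 159.6 RPKM against 30.3 to 229 (1.14 ± 0.62, adjusted p = 0.16). *Tagln* shares 67.9% of its exon bases with overlapping genes, and the contractile calls fell to 1 without EO771 replicate 1.

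Of the bone morphogenetic protein (BMP) and activin ligands, *Bmp7* was at 41 and 42.1 RPKM in EO771 and 29.0 and 39.9 in Pan02, and at most 1.07 in LL2 and MC38 (log2 difference 3.30, adjusted p = 9.2e-06). *Bmp4* was at 0.613 and 0.880 RPKM in EO771 and 129.6 and 101 in Pan02 (-2.29, adjusted p = 9.3e-05). Of 11 ligands 2 were higher and 2 lower, and of 13 antagonists and targets 5 were higher and 0 lower, with a median of 0.77. Without EO771 replicate 2 there was 1 higher ligand, and without either EO771 library there were 3 higher antagonists and targets. The secreted BMP antagonist *Grem1* had 32.6 and 22.2 RPKM in EO771, with a log2 difference of 2.32 (adjusted p = 1.4e-04). It was closest in MC38, at 13.2 and 19.1 RPKM, and lowest in Pan02, at 0.680 and 0.444.

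Wnt ligands signal to neighboring cells through Frizzled receptors, and 6 of the 13 tested were higher in EO771 and 1 lower, with a median of 0.62. *Wnt7b* had 62.6 and 66.1 RPKM in EO771, 52.5 and 60.2 in Pan02, 16.6 and 16.3 in LL2 and 0.135 and 0.128 in MC38 (log2 difference 2.65, adjusted p = 5.0e-06). *Wnt5a*, a ligand of the noncanonical branch, had 11.6 and 8.21 RPKM against 0.286 to 1.53 (2.41, adjusted p = 2.5e-04) and was above all other libraries. *Wnt5b*, *Wnt2b*, *Wnt11* and *Wnt2* were the other higher members, at 3.23 to 7.20 RPKM in EO771. *Wnt10a* was lower, at 2.25 and 2.49 RPKM against 65.3 and 79.8 in Pan02. Of 15 Wnt inhibitors and targets 3 were higher and 2 lower, the largest of the latter being the deacylase *Notum*, at 0.241 and 0.187 RPKM in EO771 and 128 and 126 in Pan02. The higher calls, *Dkk3*, *Sfrp4* and *Nkd2*, went from 3 to 0 without either EO771 library and to 5 without MC38 replicate 1.

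Growth factor ligands were also divided, 9 higher and 7 lower of 37 tested, with a median of 0.19. *Pthlh*, parathyroid hormone-related protein, which drives bone resorption, had 39.0 and 41.7 RPKM in EO771, 9.05 and 9.41 in LL2, 4.56 and 2.75 in Pan02 and 0.844 and 0.451 in MC38 (log2 difference 3.28 ± 0.17, adjusted p = 2.2e-05). The epidermal growth factor receptor ligands *Ereg*, *Hbegf* and *Areg* were called higher by 2.08, 1.62 and 1.02, although Pan02 matched EO771 for *Hbegf* (71.8 and 48.6 RPKM) and LL2 exceeded it for *Areg* (18.4 and 17.6 RPKM). The neurotrophin gene *Bdnf* was lower (0.223 and 0.343 RPKM against 1.79 to 18.2, log2 difference -2.62, adjusted p = 2.5e-05). *Hgf*, *Kitl*, *Pdgfc* and *Angpt1* were lower beside *Igf2* and *Ptn*, with 1.18/0.970, 3.12/3.23, 2.82/2.78 and 0.729/1.03 RPKM in EO771.

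**Figure D3:**
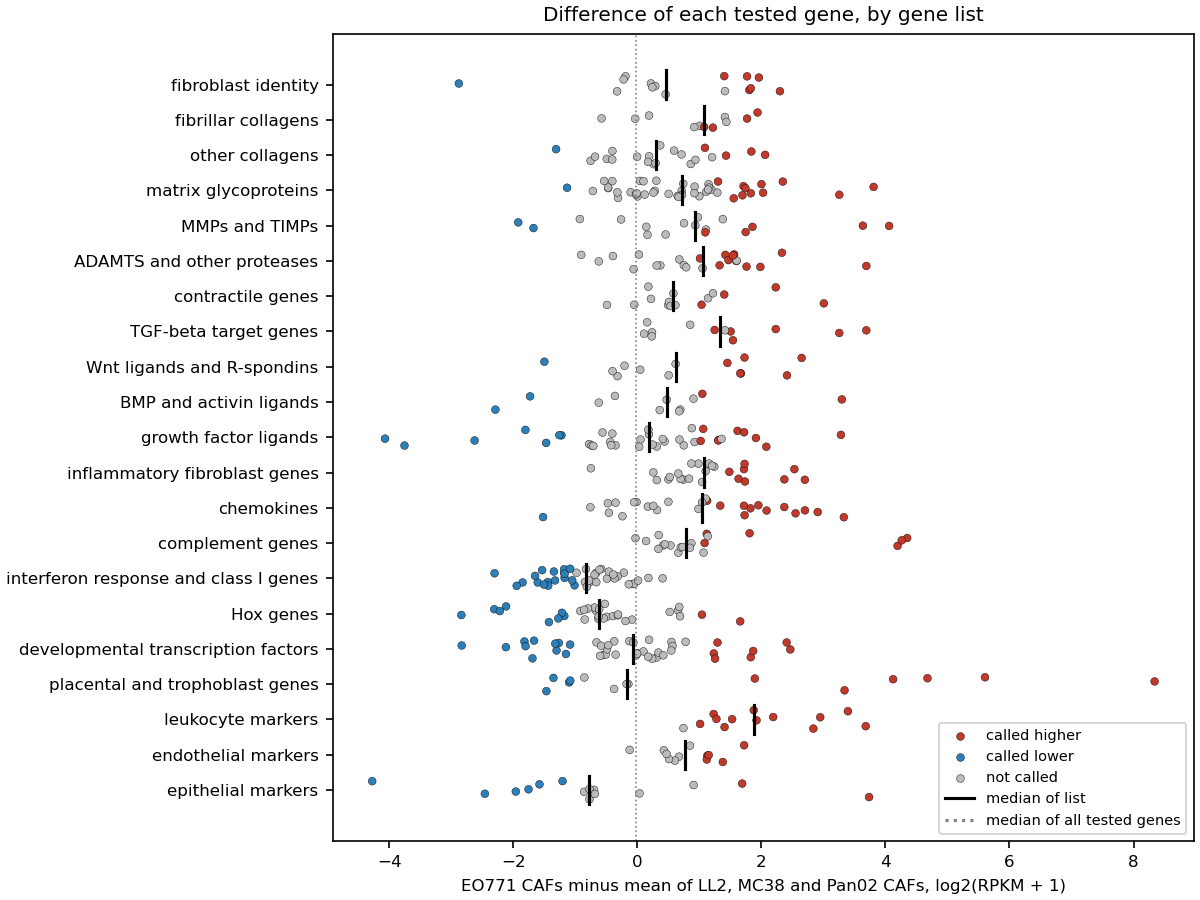
Log2 difference of each tested gene (points) between EO771 CAFs and the mean of the 3 other models, on the log2(RPKM + 1) scale, for 21 gene lists (rows), colored by call, with the list median as a bar and the median of all tested genes (-0.02) dotted. List medians run from -0.82 for interferon and class I genes to 1.88 for leukocyte markers, of which 3 passed the filter only through EO771.

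Of 24 genes of inflammatory fibroblasts 8 were called higher and 0 lower, with a median of 1.07. By model, 3 were higher and 1 lower than in LL2, with 7 and 0 for MC38 and 12 and 1 for Pan02. *Ptx3*, a pattern recognition protein of the matrix, had 85.1 and 153 RPKM in EO771 and 6.05 to 28.7 elsewhere (log2 difference 2.70 ± 0.31, adjusted p = 4.8e-04). *Saa3*, an acute phase protein, had 225 and 437 RPKM in EO771, 165 and 181 in LL2, 179 and 108 in MC38 and 9.47 and 3.19 in Pan02 (2.53 ± 0.39, adjusted p = 0.0016). The hyaluronan synthase *Has1* had 36.2 and 56.2 RPKM against 2.17 to 12.8 (2.37 ± 0.35, adjusted p = 0.0013), and *Il6* had 7.18 and 16.5 against 1.61 to 4.97 (1.63 ± 0.37, adjusted p = 0.0089). EO771 replicate 2 was the higher of the pair for all 4 of these genes. Without that library there were 4 higher calls in place of 8, and without MC38 replicate 1 there were 17. *Ccl2* and *Cxcl12*, widely studied chemokines of CAFs, were not called, with 124/159 and 55.2/89.7 RPKM in EO771 and log2 differences of 0.50 and 1.10. Among interleukins, *Il24* had 10.4 and 8.49 RPKM against at most 0.0790 elsewhere (log2 difference 3.35, adjusted p = 4.6e-06). *Il24* and *Il1b*, which was also called higher, passed the filter only through the EO771 libraries, which fixed their direction. In all 4 of 26 interleukin and receptor genes were higher and 1, *Il18*, lower, and both counts were 0 without EO771 replicate 2.

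Of 27 chemokines, which draw leukocytes along gradients, 12 were higher and 1 lower, with a median of 1.05. The highest level among the called ones was that of the neutrophil attractant *Cxcl1*, with 169 and 230.2 RPKM in EO771 and 260.4 and 131 in LL2, followed by *Ccl11* and *Ccl8* with 61.9/86.5 and 57.5/83.6 RPKM. The B cell attractant *Cxcl13* had 20.6 and 23.4 RPKM against 1.64 to 6.02 (log2 difference 2.37, adjusted p = 7.5e-04). *Ccl6*, *Pf4*, *Ccl12*, *Ccl3*, *Ccl4* and *Ccl9*, known from macrophages and platelets, were called higher at levels of 3.15 to 16.4 RPKM. *Cx3cl1* was lower (4.87 and 4.63 RPKM against 7.87 to 39.7). Without EO771 replicate 2 there were 5 higher calls in place of 12, and *Ccl3*, *Ccl6* and *Ccl9* were then not tested.

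Of the 13 leukocyte markers tested 12 were called higher and 0 lower, and 10 were above all 6 other libraries. *Adgre1*, *Itgam* and *Laptm5* passed the filter only through the EO771 libraries, which fixed their direction, and 9 others were never tested, so the count is no measure of the list. *Cd53* was called higher but was highest in Pan02 (16.1 and 28.1 RPKM, with 6.89 and 7.71 in EO771). *Lyz2*, lysozyme of macrophages and neutrophils, had 40.2 and 49.0 RPKM in EO771 and 0.673 to 10.4 elsewhere (log2 difference 3.68 ± 0.36, adjusted p = 2.5e-04). The adaptor *Tyrobp* had 11.4 and 18.2 RPKM against 0 to 1.64, and *Csf1r*, the receptor for the macrophage growth factor, 5.45 and 5.15 against 0.266 to 1.14. The complement genes *C1qa*, *C1qb* and *C1qc*, which macrophages make, had 44.0/58.4, 42.2/51.7 and 37.3/52.4 RPKM in EO771 and at most 5.54 elsewhere, with log2 differences of 4.35, 4.20 and 4.26 (adjusted p = 8.4e-05, 9.7e-06 and 9.6e-05). The CD45 gene *Ptprc* itself, on which leukocytes were depleted, was at 0.947 and 0.902 RPKM in EO771 and at most 0.092 elsewhere, too low to be tested, and the T cell genes *Cd3e* and *Cd8a* were at or under 0.035 in EO771. In whole tumors the same *C1q* genes were not called, with log2 fold changes of -0.42, -0.35 and -0.31. Of 20 complement genes 6 were higher, the *C1q* genes with *Cd55*, *C5ar1* and *C2*, and 0 lower, and without MC38 replicate 1 there were 12. Of 12 endothelial markers tested, 5 were called higher (*Egfl7*, *Cdh5*, *Cldn5*, *Pecam1* and *Tie1*), 0 of them against LL2. Among genes of antigen-presenting CAFs, *Cd74*, *H2-Aa* and *H2-Eb1* of class II had 51.2/69.1, 17.9/24.9 and 16.2/22.9 RPKM in EO771, between Pan02 (556/246, 173/85.0 and 176/90.5) and the other models (at most 2.71 RPKM). That list had 4 higher calls and 1 lower of 10, and 2 higher without EO771 replicate 2. The part of macrophages and endothelial cells in the inflammatory, chemokine and complement results was not tested.

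Calls among interferon-induced and class I antigen presentation genes were all downward. Of 42 tested 18 were called lower and 0 higher, with a median log2 difference of -0.82. The pattern followed the pairs of models: 35 of 42 were lower than in MC38 and 17 lower than in Pan02, but 0 were lower than in LL2, and 9 were higher. *H2-K1*, a class I heavy chain, had 253 and 289.9 RPKM in EO771, 212 and 202 in LL2, 884 and 599 in Pan02 and 2329 and 1868 in MC38 (log2 difference -1.33 ± 0.20, adjusted p = 0.0014). *Oas2*, an antiviral synthetase, had 2.41 and 2.70 RPKM in EO771 and 109 and 167 in MC38 (-2.30 ± 0.21, adjusted p = 1.8e-04). The GTPases *Irgm2*, *Igtp* and *Gbp2*, which guard against intracellular microbes, had 2.94/2.74, 7.19/9.88 and 11.5/11.2 RPKM in EO771 and 37.0/17.9, 105/49.9 and 171/95.3 in Pan02. The signal transducer *Stat2* was lower, with a log2 difference of -1.51 (adjusted p = 5.1e-04). The light chain *B2m* and the transporter *Tap2* were not called (-0.14 and 0.18). Without MC38 replicate 2 the count was 16 of 42.

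**Figure D4:**
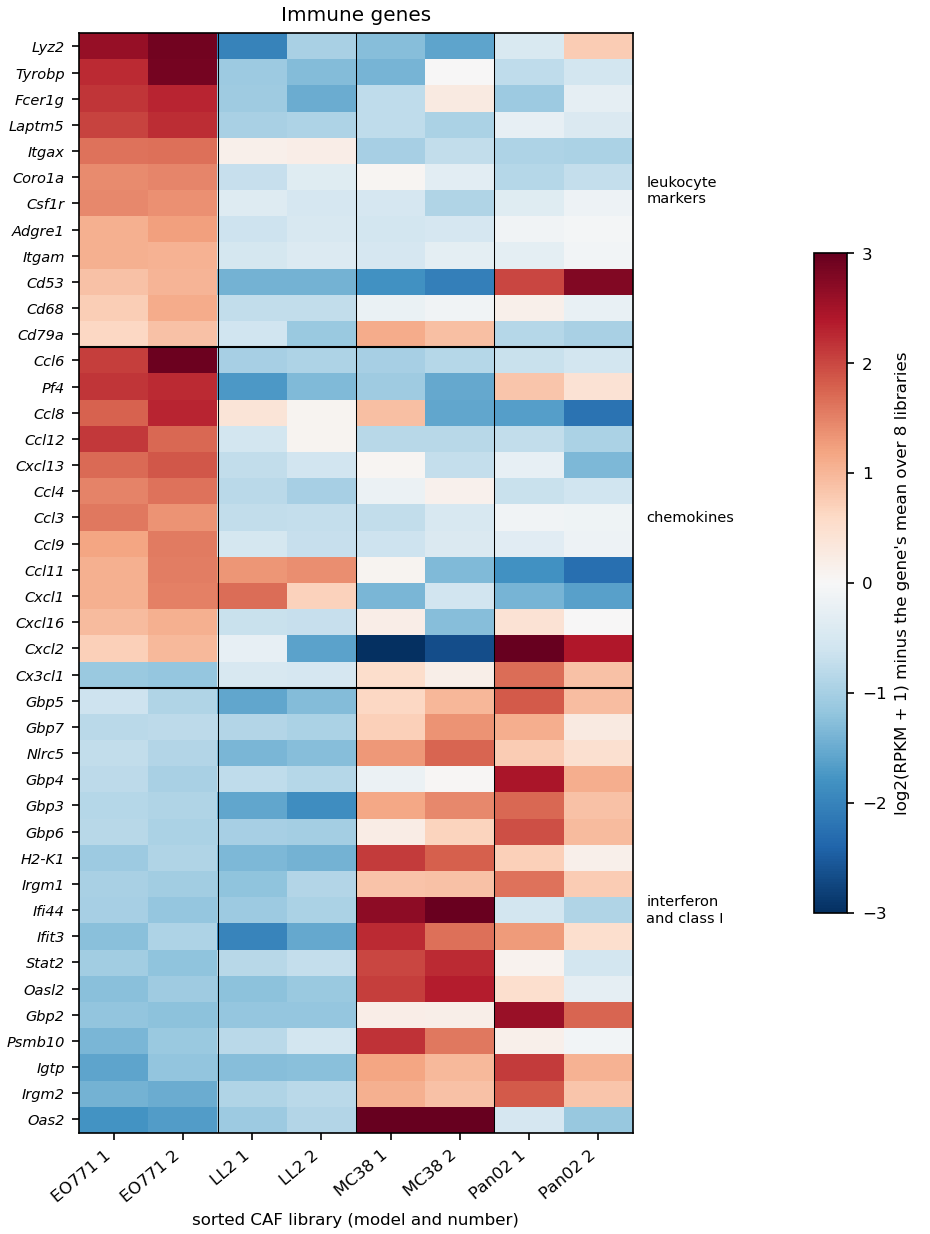
Most of the leukocyte markers, chemokines and interferon or class I genes called in EO771 CAFs, as log2(RPKM + 1) minus the gene's mean over the 8 CAF libraries (color), for each library (columns). Most leukocyte markers and chemokines are highest in the EO771 columns, and Cd53 is highest in Pan02. Interferon genes are low in EO771 and LL2 alike and high in MC38 or Pan02.

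Hox genes keep the place along the body axis at which a fibroblast arose. Of 31 tested 8 were called lower and 2 higher in EO771, with a median of -0.62. The lower ones were *Hoxa2*, *Hoxa3*, *Hoxa5*, *Hoxa6*, *Hoxa7* and *Hoxa11* of the A cluster with *Hoxb5* and *Hoxb6*. All of these but *Hoxa5* and *Hoxb6*, 6 of the 8, passed the filter only through the other models. That fixed their direction, so the excess of lower calls is no measure of the list. *Hoxa5* had 1.20 and 0.866 RPKM in EO771 and 6.12 to 35.6 elsewhere (log2 difference -2.84 ± 0.18, adjusted p = 4.4e-05), and *Hoxa7* 0.917 and 0.910 against 4.33 to 17.5 (-2.22 ± 0.13, adjusted p = 3.0e-05). *Hoxd10* was higher, with 6.08 and 7.54 RPKM against 0 to 3.33 (1.66, adjusted p = 2.3e-04). *Hoxd8* was called higher with only Pan02 far below it (12.6 and 12.8 RPKM in EO771, 1.44 and 0.520 in Pan02). MC38 and LL2, at 9.58 to 14.9 RPKM, overlapped with EO771. Among 43 other developmental transcription factors 7 were higher and 11 lower. *Tbx3*, a limb and mammary T-box factor, had 20.7 and 19.2 RPKM against 0.489 to 6.21 (2.47, adjusted p = 2.5e-05), whereas *Tbx2*, of the same family, was lower, with 2.72 and 2.96 RPKM against 44.1 and 56.6 in Pan02 and 1.76 to 8.95 in MC38 and LL2 (-1.82, adjusted p = 0.0059). *Foxs1*, *Twist2*, *Dlx2*, *Irx3*, *Tbx15* and *Tbx4* were the other higher factors, with *Foxs1* at 42.8 and 43.9 RPKM in EO771 and 47.9 and 36.6 in MC38. *Foxf1*, *Foxf2*, *Foxc1*, *Foxc2*, *Foxd1*, *Eya1*, *Pax3*, *Isl1*, *Nkx2-5* and *Pitx1* were the other lower ones. Of the 11 lower factors 7 passed the filter only through the other models, which fixed their direction. These were *Foxf2*, *Foxc2*, *Foxd1*, *Eya1*, *Pax3*, *Isl1* and *Nkx2-5*. The 5 mammary markers tested, of 12, showed 0 higher calls and 1 lower, *Cited1* (0 without EO771 replicate 1 or Pan02 replicate 1, 2 without MC38 replicate 1 or Pan02 replicate 2), and summed to 4.28 to 4.88 RPKM over the list in EO771 against 5.68 to 12.8 in the others.

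Cell cycle calls were at or under the shares over all tested genes, 8.05% higher and 7.06% lower. Of 39 cell cycle genes 3 were higher (*Ccne1*, *Cenpa* and *Cdt1*) and 1 lower, *Mki67*, at 4.82 and 4.28 RPKM against 7.89 to 18.5 (-1.15, adjusted p = 0.0048), not called without EO771 replicate 2. The inhibitor *Cdkn1a* had 158 and 169.7 RPKM against 19.3 to 83.9 (2.06 ± 0.24, adjusted p = 4.8e-04). Of 32 glycolysis and hypoxia genes 5 were higher and 3 lower. *Slc16a3*, the lactate exporter, had 209 and 235 RPKM in EO771, 215 and 177 in MC38, 35.1 and 33.8 in LL2 and 5.29 and 3.25 in Pan02 (2.75, adjusted p = 3.3e-05), the glucose transporter *Slc2a1* was at 173 and 173 RPKM in EO771, and *Gapdh* was higher by 1.12 (adjusted p = 0.0015). The carbonic anhydrase *Car9*, a classic hypoxia gene, was lower, with 1.14 and 1.15 RPKM against 2.33 to 43.8 (-2.66, adjusted p = 5.9e-05). Among integrins 5 were higher, led by *Itga6*, a laminin receptor chain (36.6 and 36.0 RPKM against 2.71 to 21.1, 1.91, adjusted p = 1.7e-05), and 4 lower (2 without LL2 replicate 2), led by *Itgb4*, the chain it pairs with in epithelium (1.85 and 2.17 RPKM against 54.7 and 49.8 in Pan02, -2.03, adjusted p = 2.5e-05).

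The 2 EO771 libraries differed by a median of 0.10 on the log2 scale over tested genes, against 0.14 in LL2, 0.18 in Pan02 and 0.28 in MC38. The called genes with a mean of at least 10 RPKM that differed most between them were *Mmp13*, *Il6*, *Saa3*, *Ccl6* and *Mir711*, a hairpin locus that shares 43.9% of its bases with the gene *Col7a1*. *Mmp13* was higher in replicate 1 (54.1 and 23.8 RPKM), and *Il6*, *Saa3* and *Ccl6* were higher in replicate 2 (7.18/16.5, 225/437 and 8.23/15.8). For each of these genes both EO771 libraries were above all 6 others.

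The whole tumors of the same models gave a separate set of libraries. Of 15475 genes tested there with edgeR, 1309 were called higher in EO771 tumors (8.46%) and 2272 lower (14.7%) against the same 3 models. Of the 1084 genes higher in EO771 CAFs that were tested in tumors, 594 were higher in tumors too (54.8%), which is 58.0% of the 1025 tumor genes higher and tested in both. Another 70 (6.46%) were lower in tumors and 420 were not called. Of 919 genes lower in CAFs, 638 were lower in tumors (69.4%, or 35.5% of the 1796 lower in tumors), 0 were higher and 281 were not called. *Pthlh*, *Tgfbi* and *Fbln2* were higher in both, by 3.82, 1.59 and 2.33 in tumors. *Lrrc15*, *Postn*, *Tnn*, *Col12a1* and *Thy1* were higher in CAFs and not called in tumors, with log2 fold changes there of 0.79, 0.66, 0.92, 0.42 and 0.00. Of the inflammatory fibroblast genes, 8 of 24 were higher in CAFs, and of 25 tested in tumors 0 were higher and 16 lower, with a median of -1.92. The genes called opposite ways with the largest rise in CAFs were *Ptx3*, *Saa3*, *Has1*, *Cxcl13* and *Ccl4*, with tumor log2 fold changes of -3.08, -2.25, -4.11, -2.90 and -1.31. CAF and tumor tables were normalized separately, so that calls are set side by side and levels are not.

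**Figure D5:**
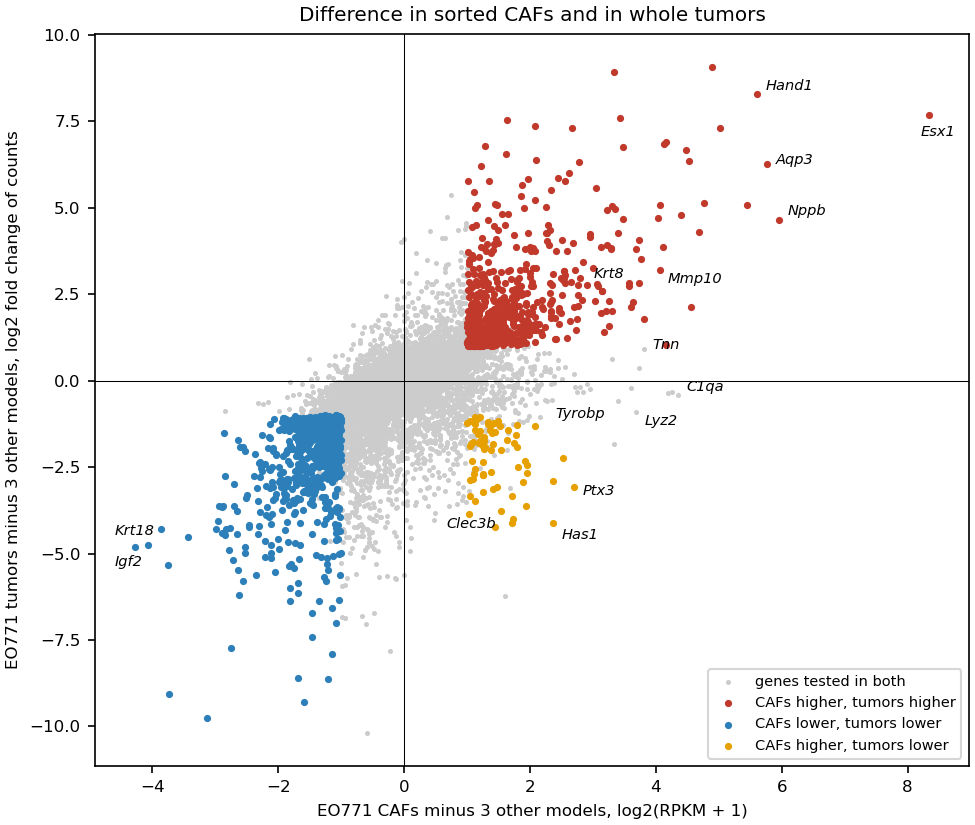
Log2 difference between EO771 and the 3 other models in sorted CAFs (horizontal axis, log2(RPKM + 1)) and in whole tumors (vertical axis, log2 fold change of counts), 1 point per gene tested in both, colored by the pair of calls. The 594 genes higher in both include Esx1, Hand1 and Aqp3, the 70 genes higher in CAFs and lower in tumors include Ptx3 and Has1, and C1qa, Lyz2 and Tyrobp lie to the right of 0 near the horizontal line.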

How the data were processed

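RNA of 8 FAP+ CAF libraries and 12 whole tumors of the EO771, LL2, MC38 and Pan02 models was analysed; 5 columns of other libraries were not used. Reads were aligned to mm10 with STAR 2.5.0c and counted over RefSeq exons with HOMER, without strand, per the paper's methods and the submitters' processing notes, which also name DESeq2. For CAFs the authors deposited RPKM per transcript with 3 decimals, and for tumors the authors deposited expected counts in steps of 0.5, which were rounded to whole numbers. Where a symbol had several transcripts, that of highest mean level was taken (24940 symbols).

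The 13598 genes that reached 1 RPKM in 2 or more CAF libraries were fitted by limma 3.58.1, with a variance trend and 1 term per model, after adding 1 and taking log2. Because the low values are whole steps per transcript length (97.6% to 100.0% within 0.1 of a step, taken as 0.5 counts), counts were recovered and refitted with edgeR 4.0.16 as an alternative; other alternatives changed the pseudocount, filter, scaling, transcript choice, variance trend, fold threshold and replicate block, and left out each library. Tumor counts were fitted with edgeR's quasi-likelihood test (TMM, filterByExpr), and with DESeq2 1.42.0 as an alternative. On simulated data with 200 changed genes the CAF fit in limma recovered 198 with 8 false calls over 13598 genes, the edgeR fit to CAF counts 200 with 0, and the tumor fit 200 with 2 over 15475 genes. The planted changes were all larger than the call threshold and lay in well covered genes, with the same spread set for every gene. Recovery of changes near the threshold, of low genes on their own, or at the spread of the MC38 pair was not tested. Replicates are separate sorting rounds or tumors, and p-values measure the spread between them.

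Named genes were the 4 given markers, the 15 largest rises and 15 largest falls among called genes outside the range of the other 6 libraries with a mean of at least 10 RPKM, called members of 46 gene lists, the 5 called genes that differed most between the EO771 libraries, and up to 5 genes called opposite ways in CAFs and tumors each way. Some named genes are not reported here. Members, lists and tests were chosen with earlier results of these data known. Exon overlap was counted on both strands in GENCODE models of the same build; RefSeq promoter windows were matched by symbol for 5 of 5 genes. Scripts ran under Python 3.11.15 with pandas 2.3.3 and under R 4.3.3.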

Additional observations from a re-analysis of the deposited data

Results flagged for a closer look

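Among the named genes, 7 lay above all 6 other CAF libraries in both EO771 CAF libraries and below all 9 other tumors in the 3 EO771 tumors. The difference between CAFs and tumors was not tested, since the tables were normalized separately. *Sfrp4*, a secreted Wnt antagonist, was higher in CAFs by 1.95 (adjusted p = 0.017, limma) and had 0.255 to 2.27 CPM in EO771 tumors against 3.03 to 62.7 in the others (log2 fold change -3.61, adjusted p = 0.0077, edgeR). *Clec3b*, which encodes the plasminogen-binding protein tetranectin, was higher in CAFs by 1.74 (adjusted p = 0.032) and had 0.425 to 1.96 CPM in EO771 tumors against 4.35 to 112 (-4.01, adjusted p = 0.0045). *Pi16*, a marker of resting universal fibroblasts, was higher in CAFs by 1.48 (adjusted p = 0.039) and had 3.40 to 19.4 CPM against 21.0 to 193 (-3.08, adjusted p = 0.0075). *Chrdl1*, a BMP antagonist, differed by 1.05 in CAFs (adjusted p = 0.026) and -3.32 in tumors (adjusted p = 0.0065). The complement regulator *Cd55* differed by 1.81 and -2.49 (adjusted p = 0.0016 and 0.011), the chemokine *Ccl3* by 1.95 and -2.43 (adjusted p = 4.6e-05 and 0.0022), and *Srgn*, the proteoglycan of secretory granules, by 1.80 and -1.93 (adjusted p = 6.8e-04 and 0.0072). *Sfrp4*, *Clec3b*, *Pi16* and *Chrdl1* lost their CAF call when either EO771 library was left out. *Clec3b*, *Pi16* and *Chrdl1* also lost it with no filter on low values and without LL2 replicate 2 or Pan02 replicate 2, *Clec3b* and *Pi16* without LL2 replicate 1, *Pi16* without Pan02 replicate 1, and *Chrdl1* with a pseudocount of 0.1. *Ccl3* could not be tested without either EO771 library. Over all genes tested in both tables, 29 lay above all in CAFs and below all in tumors, and 12 lay the opposite way.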

How the results depend on the processing

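The counts of CAF genes moved with the scale of low values. Genes called lower rose from 960 to 1711 with a pseudocount of 0.1 and to 1551 with edgeR on recovered counts, and genes lower than in LL2 from 795 to 1269 and 1266. Genes called higher went from 1094 to 1446 and 1600. Of the main calls, the edgeR fit to counts kept 1086 higher and 902 lower. Without a fold threshold, 3336 genes were higher and 3797 lower against the 3 models, 2479 and 2448 against LL2, 3859 and 3802 against MC38, 3472 and 3761 against Pan02, and 4040 and 4112 in tumors. Leaving out 1 library gave 735 to 1297 higher and 893 to 988 lower against the 3 models, and 659 to 1104 higher than in LL2. The lowest came without EO771 replicate 2, where 155 of the 1094 genes were no longer tested, and the highest without MC38 replicate 1. The other filters, scalings, the transcript mean and the variance trend kept both counts within 1.5 times of the main ones.

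With the replicate number as a block, 1116 genes were called higher and 959 lower, keeping 1093 and 956 of the main calls. Deviations of same-numbered libraries from the model means correlated by 0.12 between EO771 and LL2, -0.14 between EO771 and MC38, 0.05 between EO771 and Pan02, 0.10 between LL2 and MC38, 0.28 between LL2 and Pan02 and 0.25 between MC38 and Pan02. Since 3 of the 6 did not exceed 0.1, the replicate numbers were not taken to pair the libraries. In tumors the block gave 1320 higher and 2156 lower, and DESeq2 1336 and 2296.

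All 288 named genes kept their direction under every alternative in which they were tested. Of these, 72 rose past an adjusted p of 0.05 when 1 library was left out, among them matrix, inflammatory and chemokine genes, 28 with no filter on low values, 7 with a pseudocount of 0.1 and 4 with edgeR on counts. In all, 19 named genes, among them *Aqp3*, *Hand1*, *Krt17*, *Gm364*, *Il23a*, *Il24*, *Lypd3* and *Col2a1*, could not be tested without 1 EO771 library, since they then reached 1 RPKM in a single library. Depth limits low genes most in MC38 replicate 2, and recovered counts carry counting error only.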

Other observations

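Genes that respond to tissue dissociation, such as early response and heat shock genes, were called higher in EO771 for 5 of 19 and lower for 0, with a median log2 difference of 0.49. *Atf3* had 136 and 129 RPKM in EO771, 217 and 76.4 in Pan02, 137 and 51.4 in LL2 and 4.65 and 4.35 in MC38, and *Ier3* had 508 and 552 RPKM against 62.7 to 161 (log2 difference 2.08, adjusted p = 0.0014). Without either EO771 library there were 2 higher calls in place of 5. Of 13 genes of pericytes and vascular CAFs 0 were higher and 2 lower (*Nr2f2* and *Notch3*; 1 without any single library but MC38 replicate 2), with a median of 0.01, and the pericyte gene *Rgs5* had 22.8 and 29.8 RPKM against 4.33 to 96.6.

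Of 20 targets of the oxidative stress factor Nrf2, 1 was higher, *Osgin1* (75.5 and 61.4 RPKM against 4.50 to 39.7, log2 difference 2.53, adjusted p = 7.6e-04), and 1 lower, the glutathione transferase *Gsta4* (0.712 and 0.421 RPKM, 24.9 and 27.5 in MC38, -2.77, adjusted p = 6.3e-05). Of 21 cartilage, bone and tendon genes 2 were higher (0 without either EO771 library, 4 without MC38 replicate 1) and 3 lower (6 without MC38 replicate 2). The tendon factor *Scx* had 0.874 and 0.595 RPKM in EO771 and 64.6 and 73.2 in Pan02 (-2.65, adjusted p = 3.2e-04). Of 13 prostaglandin genes 1 was higher, the prostacyclin synthase *Ptgis* (0 without either EO771 or LL2 library or Pan02 replicate 2), and 1 lower, the phospholipase *Pla2g4a* (3.40 and 4.15 RPKM against 5.41 to 19.5, -1.23, adjusted p = 3.5e-04). Of 14 immunosuppressive genes 2 were higher, *Tgfb2* and *Tgfb1*, and 2 lower, *Tnfrsf14* and *Ido2* (1 without MC38 replicate 2). The mesothelial gene *Msln* had 4.08 and 3.41 RPKM in EO771, 1.79 and 2.43 in LL2, 35.7 and 31.6 in MC38 and 131 and 142 in Pan02 (-2.37, adjusted p = 2.2e-05). Of 6 aquaporins *Aqp3* and *Aqp2* were higher and *Aqp1*, the channel of vessels and mesothelium, lower (17.9 and 18.1 RPKM against 19.2 to 107). Without EO771 replicate 1 or 2 the higher aquaporin calls were 1 or 0. Of 4 natriuretic peptide genes tested, *Npr2*, the receptor for the C-type peptide, was higher beside *Nppb* (12.5 and 12.1 RPKM, 1.22, adjusted p = 0.0019), and *Npr1*, the receptor that BNP uses, was not called (5.01 and 5.55 RPKM, -0.35, adjusted p = 0.028).

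The remaining lists gave few calls. Of 18 proteoglycan genes 3 were higher (*Srgn*, *Sdc1* and *Sdc4*; 7 without MC38 replicate 1) and 0 lower. Of 8 genes of insulin-like growth factor binding 0 were higher (2 without EO771 replicate 1, 3 without MC38 replicate 1) and 1 lower, *Igf2r*. Of 13 cell cycle inhibitors 2 were higher, *Cdkn1a* and *Cdkn1c* (1 without either EO771 or LL2 library or MC38 replicate 2), and 1 lower, *Cdkn2c*. Among markers of other cells, 0 of 3 tested Schwann cell genes and 0 of 1 adipocyte gene were called, *Ckm* was higher of 2 muscle genes and *Krt14* of 2 keratinocyte genes.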
